A study of Mus musculus with 19 samples.

Results

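MHC class II presentation was followed through 8 genes of this pathway, H2-Aa, H2-Ab1, H2-Eb1, H2-DMa, H2-DMb1, Cd74, Ciita and Ctss, which were taken by symbol from the deposited tables of 24192 genes. All 8 were found, and all 8 passed the filter on low counts in each comparison. The measurements are RNA sequencing of whole livers of 19 adult mice, 1 library per mouse, on a crossed design of genotype and diet. HF-KO mice (n = 6) were labelled as hepatocyte-specific PPARγ knockouts and ate the HFCF diet, which is high in fat, cholesterol and fructose. HF-C mice (n = 5) were controls on the same diet. LF-KO mice (n = 4) carried the knockout label on the LFCF (low fat) diet, and LF-C mice (n = 4) were controls on the low fat diet. Per the labels' protocols, the knockout was induced in adult animals ahead of 24 weeks of HFCF feeding, and the series states that this diet induces NASH, a fatty liver disease with inflammation. The sources used here give no strain, age or deleted exons, and do not say how the knockout was induced. Each group enters 2 of the pairwise comparisons below, which therefore share libraries.

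MHC class II molecules show peptides from engulfed material to CD4+ T cells. An α and a β chain pair in the endoplasmic reticulum and bind the invariant chain, which blocks the peptide groove and steers the complex to endosomes. There, proteases including cathepsin S trim the invariant chain, and the DM heterodimer exchanges the remaining fragment for antigenic peptide. Transcription of the chains, of DM and of the invariant chain depends on CIITA, a coactivator that binds no DNA itself and is recruited by factors on the X and Y boxes of class II promoters. In liver, class II is known mainly from dendritic cells, macrophages and B cells, with lower levels on sinusoidal endothelium. Whole liver RNA pools these cells with hepatocytes, so that fewer cells of a type and less RNA per cell cannot be told apart.

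H2-Aa encodes the α chain of I-A, H2-Ab1 its β chain and H2-Eb1 the β chain of I-E. H2-DMa and H2-DMb1 encode the DM heterodimer, Cd74 the invariant chain, Ciita the coactivator and Ctss cathepsin S. Positions here are those of the deposited tables. On chromosome 17, H2-DMa lies at 34135182 to 34139101, H2-DMb1 at 34153072 to 34160230, H2-Ab1 at 34263209 to 34269418, H2-Aa at 34282744 to 34287827 and H2-Eb1 at 34305877 to 34316199. These 5 genes thus fall within 181 kb, and H2-Aa is the only one of them on the minus strand. Ciita lies on chromosome 16 at 10488178 to 10527564 and Ctss on chromosome 3 at 95526786 to 95556403. In GENCODE release M21, exons of H2-DMa overlap Brd2 and exons of Ciita overlap Dexi, both on the opposite strand, and exons of Cd74 overlap Mir5107. The libraries were not strand-specific, so reads in these overlaps cannot be assigned to 1 gene. H2-DMb1 also has a close copy, H2-DMb2, with which reads can be shared.

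The promoters of H2-Aa and H2-Eb1 are shown because their genes differed between HF-KO and HF-C livers and because both carry the X and Y boxes through which CIITA acts. The sequences are from RefSeq on GRCm38.p6, run 5′ to 3′ on the gene's strand and end close to the RefSeq start of transcription, H2-Aa at chr17:34287828-34287973 on the minus strand and H2-Eb1 at chr17:34305717-34305866 on the plus strand. Capitals mark the X box core GNAACT and then the Y box core GATTGG.
H2-Aa: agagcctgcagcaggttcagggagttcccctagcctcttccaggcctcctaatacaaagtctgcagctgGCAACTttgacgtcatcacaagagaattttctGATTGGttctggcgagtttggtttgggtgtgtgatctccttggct
H2-Eb1: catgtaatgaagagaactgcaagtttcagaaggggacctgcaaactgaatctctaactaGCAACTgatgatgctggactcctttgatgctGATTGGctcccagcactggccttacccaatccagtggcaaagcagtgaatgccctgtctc

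Both promoters have the same order of elements, with the X core 81 bases before the start of H2-Aa and 91 before that of H2-Eb1. The start of the Y core follows that of the X core after 32 bases in H2-Aa and after 31 in H2-Eb1. The H2-DMb1 window held the same pair, 94 and 62 bases before the start. Searched on both strands in RefSeq windows of 250 bases before to 50 after a start, GNAACT was present in 42.8% and GATTGG in 16.1% of 32851 promoters. The X core followed by the Y core on the same strand, with starts 20 to 45 bases apart, was present in 0.402%. No such pair was present in the Ctss window or in either window listed for H2-DMa. The H2-DMa windows lie at 34122582 to 34122881 and 34125268 to 34125567, upstream of the deposited start of that gene at 34135182. The sequence next to that deposited start was not searched. No window of Cd74, H2-Ab1 or Ciita is described here. The letters and the spacing were chosen with these promoters in view, the motifs do not overlap each other, and a match of letters is a description, not a bound site.

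Counted fragments per library ranged from 11437875 to 20711869. Pparg, the targeted gene, averaged 68.5 ± 25.3 CPM in HF-KO and 25.3 ± 4.42 CPM in HF-C livers (SD, n = 6 and 5), so it was higher in livers labelled as knockouts, by 1.47 on the log2 scale (adjusted p = 0.00276). It averaged 25.1 ± 15.3 CPM in LF-KO and 11.4 ± 5.76 CPM in LF-C livers (SD, n = 4 each; log2 fold change 1.15, adjusted p = 0.704), and the log2 fold change was 1.03 without the library LF-C-2 (adjusted p = 1.00). Counts over the whole gene cannot show whether single exons were removed, and every direction between genotypes below rests on the labels. CPM (normalised counts) were made with TMM factors over all 19 libraries, and adjusted p-values are from edgeR's quasi-likelihood test with Benjamini-Hochberg adjustment over all genes tested. A gene is called at an adjusted p under 0.05. The library LF-C-2 stood apart from the other 18. Mitochondrial genes took 1.64% of its counts (4.02 to 5.92% elsewhere), its 10 most abundant genes took 25.5% (14.6 to 20.2% elsewhere) and its TMM factor was 0.611 (0.858 to 1.22 elsewhere). The results for the 8 genes against LF-C livers are therefore given with and without it.

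Cd74 lies on chromosome 18 at 60803848 to 60812646. Between genes, levels are compared as the deposited FPKM, which are relative to gene length. In HF-KO livers, Cd74 averaged 168 ± 77.3 FPKM, H2-Aa 97.1 ± 43.8, H2-Ab1 89.9 ± 39.7, H2-Eb1 85.1 ± 36.7, Ctss 71.4 ± 16.4, H2-DMb1 10.2 ± 3.18, H2-DMa 6.59 ± 2.17 and Ciita 1.28 ± 0.613 FPKM (SD, n = 6). In HF-C livers the averages were 422 ± 126 FPKM for Cd74, 219 ± 76.0 for H2-Aa, 218 ± 74.1 for H2-Ab1, 209 ± 75.3 for H2-Eb1, 126 ± 32.6 for Ctss, 19.7 ± 5.31 for H2-DMb1, 13.9 ± 4.70 for H2-DMa and 2.29 ± 0.739 for Ciita (SD, n = 5). The order was the same in both groups, with the invariant chain above the chains it accompanies and the coactivator at the bottom. Cd74 had the highest FPKM of the 8 in 18 of 19 libraries, and Ciita the lowest in all 19. The exception was HF-KO-2, where Ctss had 67.2 FPKM and Cd74 59.6. The averages of the 3 chain genes H2-Aa, H2-Ab1 and H2-Eb1 differed by less than their SD in each group. Within libraries, however, H2-Eb1 lay below H2-Aa in every HF-KO and HF-C library. It also lay below H2-Ab1 in every HF-C library (ratio up to 0.999) but not in every HF-KO library (ratio up to 1.10). The DM genes lay below all 3 in every library.

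Of all counted fragments, the 8 genes together took 0.0398 to 0.106% in the HF-KO livers (median 0.0653%) and 0.112 to 0.240% in the HF-C livers (median 0.137%). In the LF-KO livers they took 0.0264 to 0.0339%. In LF-C livers other than LF-C-2 they took 0.0239 to 0.0328%, and in LF-C-2 0.116%. The share was thus highest in HF-C livers without overlap with HF-KO livers, and both low fat groups lay lower still except for LF-C-2.

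**Figure D1:**
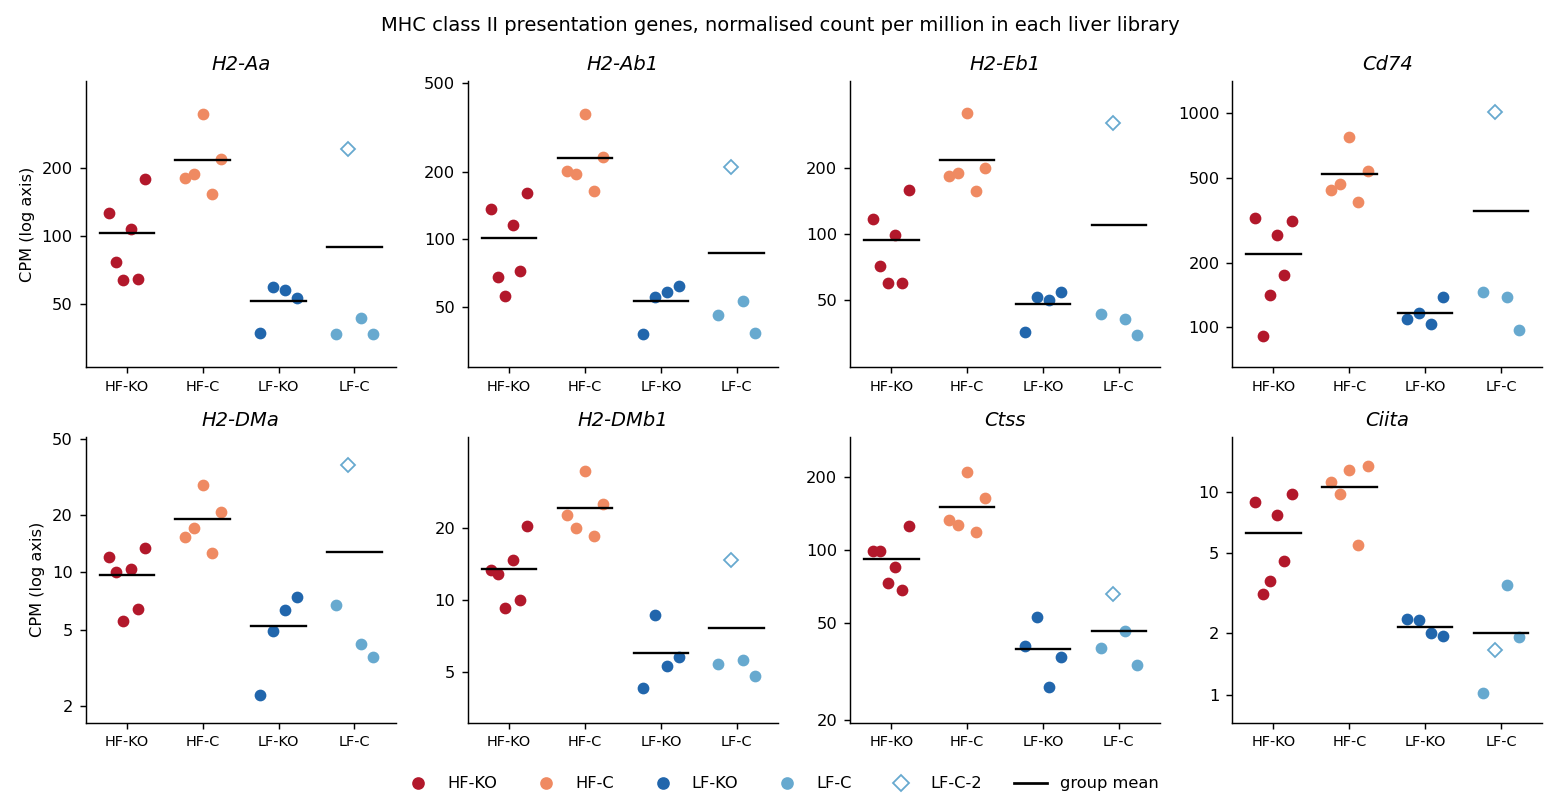
Level of each of the 8 class II presentation genes (CPM, log axis) in every library, by group from HF-KO and HF-C to LF-KO and LF-C; points are libraries, the open diamond is LF-C-2 and bars are group means. HF-C livers are highest apart from LF-C-2, and H2-Ab1 and Cd74 do not overlap between HF-KO (up to 162 and 324 CPM) and HF-C (from 164 and 387 CPM).

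The first comparison asked what the PPARγ knockout label went with under the NASH-inducing diet. Class II presentation genes were lower in HF-KO than in HF-C livers: 7 of the 8 fell and none rose, where 5.43% of 13915 genes tested were called lower. The median log2 fold change of the 8 was -0.99, against 0.02 over all genes tested, and every one of the 6 HF-KO libraries was below the HF-C mean for each gene. The invariant chain fell most, to a level 2.34-fold lower, and the coactivator Ciita was the gene that did not pass.

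Among the chains, H2-Ab1 had a lowest value of 56.1, a median of 94.2 and a highest value of 162 CPM in the HF-KO livers, against 201, 196, 364, 164 and 233 CPM in HF-C replicates 1 to 5. The highest HF-KO library, HF-KO-6, lay just below the lowest HF-C library, HF-C-4, and the groups did not overlap. H2-Ab1 was 2.23-fold lower in HF-KO livers (log2 fold change -1.16 ± 0.28, SE, adjusted p = 0.0210). H2-Eb1 had 59.8 at the lowest, a median of 85.6 and 158.3 CPM at the highest in HF-KO livers, against 185, 189.4, 356, 157.6 and 201 CPM in HF-C replicates 1 to 5. HF-KO-6 lay just above HF-C-4, the only crossing of these groups. The log2 fold change of H2-Eb1 was -1.17 ± 0.27 (SE, adjusted p = 0.0183).

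H2-Aa had 64.2 at the lowest, a median of 92.2 and 178 CPM at the highest in HF-KO livers, against 179.9, 188, 345, 154 and 219 CPM in HF-C replicates 1 to 5. HF-KO-6 exceeded HF-C-4 and no other HF-C library. H2-Aa was 2.06-fold lower (log2 fold change -1.04 ± 0.28, SE, adjusted p = 0.0316).

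Cd74, the invariant chain, had 91.4 at the lowest, a median of 223 and 324 CPM at the highest in HF-KO livers. HF-C replicates 1 to 5 had 438, 469.7, 779, 387 and 537 CPM. All 6 HF-KO libraries lay below all 5 HF-C libraries, with a log2 fold change of -1.22 ± 0.29 (SE, adjusted p = 0.0206). Cd74 and H2-Ab1 were the only 2 of the 8 whose groups did not overlap, where 5.57% of genes tested lay lower without overlap.

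H2-DMa averaged 9.67 ± 3.10 CPM in HF-KO and 18.9 ± 6.24 CPM in HF-C livers (SD, n = 6 and 5), a log2 fold change of -0.93 ± 0.25 (SE, adjusted p = 0.0317). H2-DMb1 averaged 13.4 ± 3.98 CPM in HF-KO and 24.3 ± 6.36 CPM in HF-C livers, a log2 fold change of -0.82 ± 0.21 (SE, adjusted p = 0.0266). Both chains of the DM heterodimer thus fell. Ctss averaged 91.6 ± 21.1 CPM in HF-KO and 149.7 ± 36.9 CPM in HF-C livers and was 1.60-fold lower (log2 fold change -0.68 ± 0.18, SE, adjusted p = 0.0340). Ciita averaged 6.27 ± 2.86 CPM in HF-KO livers and 10.5 ± 3.14 CPM in HF-C livers, and its log2 fold change of -0.70 ± 0.30 (SE) did not pass (adjusted p = 0.147). The size of the Ciita difference was near that of Ctss, with a larger error.

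The libraries kept a shared order. HF-KO-6 was the highest HF-KO library for 7 of the 8 genes and HF-KO-3 the lowest for 4, whereas HF-C-3 was highest among HF-C livers for 7 and HF-C-4 lowest for all 8. With this shared order, the 8 genes do not give 8 separate observations of the groups. The coefficient of variation of H2-Aa was 43.2% among HF-KO and 34.5% among HF-C libraries. Leaving out single libraries ended some calls but turned no direction. The H2-Eb1 call held without each of the 11 libraries (adjusted p up to 0.0458), and the H2-Ab1 call was lost only without HF-C-3 (adjusted p = 0.0517). The Cd74 call was lost without HF-C-3 or HF-KO-3 (adjusted p up to 0.0522). The number of the 8 genes called was 1 without HF-C-3, 2 without HF-KO-3, 3 without HF-C-5, 3 without HF-KO-5 and 4 without HF-C-2. It was 6 without HF-C-1 or HF-KO-4 and 7 without any of the other 4 libraries. Calls over all genes, in either direction, moved too. Of genes tested, 5.13% were called without HF-KO-3, 5.21% without HF-C-5, 5.45% without HF-C-2, 7.40% without HF-KO-5 and 7.62% without HF-C-3. It was 6.01% without HF-C-1, 9.38% without HF-KO-4 and 5.02 to 13.1% without any of the other 4, against 9.77% with all libraries. With all 19 libraries in 1 fit, 0 of the 8 were called, where 3.69% of genes were, although all 8 had an unadjusted p under 0.05. With LF-C-2 left out of that fit, 7 were called, where 8.38% of genes were. Scaled by library size alone, the median over all genes was -0.11 and the genes called numbered 345 higher and 1016 lower, against 605 and 755 with TMM; the 8 genes then lay 0.71 to 1.22 below that median on the log2 scale, and the same 7 were called.

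**Figure D2:**
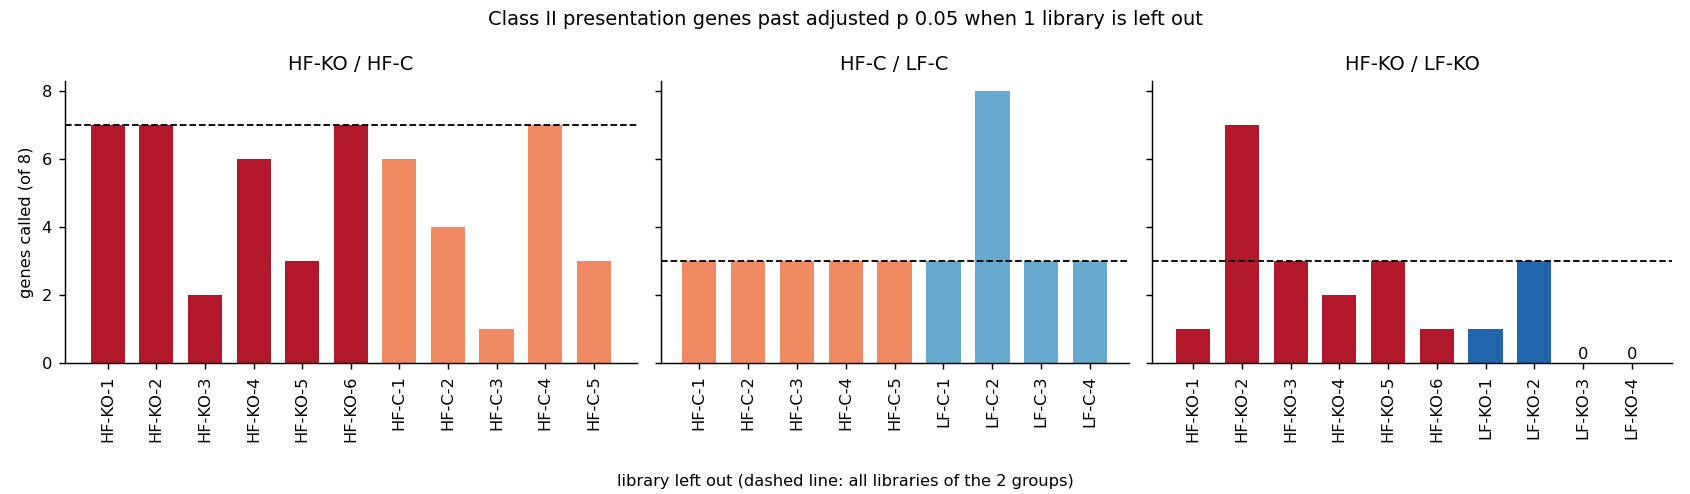
Number of the 8 class II presentation genes called (adjusted p under 0.05) when 1 library is left out, in each of the pairwise comparisons with calls; the x axis names the library left out and the dashed line is the count with all libraries of both groups. In HF-KO against HF-C the count ranges from 1 without HF-C-3 to 7, and calls over all genes range from 704 to 1813. In HF-C against LF-C the count is 8 without LF-C-2 and 3 otherwise, and calls over all genes range from 1451 to 3478.

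Genes upstream, downstream and beside the pathway were read from lists of other components and of cell type markers. Of 5 other class II genes 3 were tested and none was called, with a median of -0.39. These were H2-DMb2 (-0.40, adjusted p = 0.275), H2-Eb2 (-0.39, adjusted p = 0.498) and H2-Ob (-0.09, adjusted p = 0.825). Their list was low, at a summed 2.5 to 4.7 CPM in HF-KO and 3.8 to 6.2 CPM in HF-C livers. Of 11 genes of endosomal processing, 3 fell in HF-KO livers and none rose, with a list median of 0.04. Ifi30, a thiol reductase that opens disulphides of endocytosed proteins, fell by 0.72 ± 0.15 on the log2 scale (SE, adjusted p = 0.00997), and Lgmn, the asparaginyl endopeptidase legumain, fell by 0.57 ± 0.10 (adjusted p = 0.00638). Both calls held without each of the 11 libraries, whereas that of Ctsd, cathepsin D (log2 fold change -0.34, adjusted p = 0.0465), held without only 1 of them, HF-KO-2. Of 14 tested regulators of CIITA and of class II promoters, 2 fell and none rose. These were Socs1, a feedback inhibitor of interferon signalling (-0.89, adjusted p = 0.0275, lost without HF-C-3, HF-KO-5, HF-C-4 or HF-C-2 at adjusted p up to 0.0696), and Ifngr1, the ligand-binding chain of the interferon γ receptor (-0.37, adjusted p = 0.0307, lost without HF-KO-3, HF-KO-5, HF-C-3, HF-C-4 or HF-C-5 at adjusted p up to 0.0832).

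MHC class I presentation, which serves CD8+ T cells, had no called gene among 13 tested, with a median of 0.03. The summed level of its genes was 5231 to 6337 CPM in HF-KO and 5328 to 6750 CPM in HF-C livers, so the groups overlapped. Of 5 costimulatory and coinhibitory ligands tested, none was called. Of 6 tested markers of CD4+ T cells and class II receptors, none was called, and their summed level was 6.2 to 11.8 CPM in HF-KO and 6.5 to 11.04 CPM in HF-C livers.

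Markers of cells that carry class II moved unevenly. Of 8 markers of recruited macrophages, 5 fell and none rose, with a median of -0.87. Gpnmb, a lysosomal glycoprotein of lipid-laden macrophages, fell by 1.67 on the log2 scale (adjusted p = 0.00171) and Itgax, the integrin CD11c, fell by 1.21 (adjusted p = 0.00910). Trem2, a lipid receptor of these macrophages (-0.85, adjusted p = 0.0162), and Itgam, the integrin CD11b (-0.98, adjusted p = 0.0185), fell too. The fifth was Cd9, a tetraspanin (-0.58, adjusted p = 0.0190), which was named after its value was seen. The summed level of these 8 markers was 62.4 to 140 CPM in HF-KO livers and 163 to 211 CPM in HF-C livers, without overlap. The summed level of the class II genes was 414 to 980 CPM in HF-KO and 1017 to 2128 CPM in HF-C livers, also without overlap.

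Of 9 leukocyte and macrophage markers, 2 fell: Cd68, a macrophage lysosomal protein (-0.81, adjusted p = 0.00567), and Laptm5 (-0.80, adjusted p = 0.0451, held only without HF-KO-1 or HF-KO-2). Ptprc, the pan-leukocyte antigen CD45, differed by -0.41 (adjusted p = 0.135). Of 8 dendritic cell markers 1 fell, Ccr7, a chemokine receptor of migrating dendritic cells (-0.96, adjusted p = 0.0214, lost without HF-KO-3, HF-C-4 or HF-C-5 at adjusted p up to 0.0561), and their summed level was 20.1 to 24.5 CPM in HF-KO and 20.2 to 29.5 CPM in HF-C livers. No B cell marker was called among 7 tested, with summed levels of 6.7 to 10.9 CPM in HF-KO and 5.8 to 9.4 CPM in HF-C livers. Of 7 Kupffer cell markers 1 rose, Cd163, a haemoglobin scavenger receptor (2.74, adjusted p = 0.00686), and none fell, and of 8 markers of sinusoidal endothelium none was called. No marker of these macrophage, dendritic or B cell lists was at 0 in all libraries of a group.

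Markers outside the immune lists also differed. Of 6 cholangiocyte markers 4 fell, among them Krt19, a bile duct keratin (-1.32, adjusted p = 0.0102), and of 7 hepatocyte markers 4 rose, where 4.35% of genes tested were called higher, with summed levels of 56694 to 68737 CPM in HF-KO and 40162 to 53129 CPM in HF-C livers. The part that any of these cell types has in the class II difference was not tested.

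**Figure D3:**
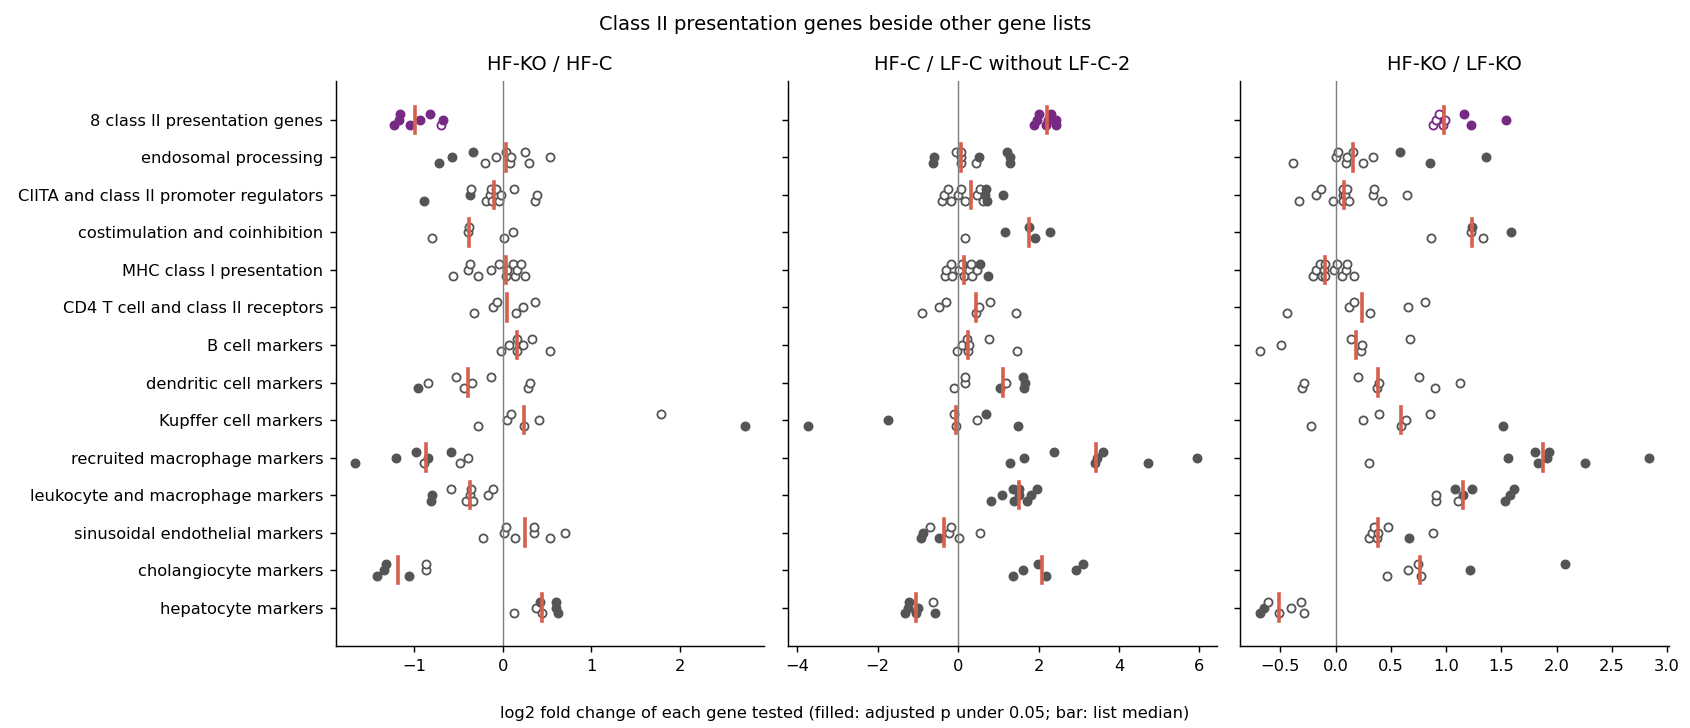
Log2 fold change of each tested gene of the class II presentation genes and of other gene lists, 1 row per list and 1 panel per comparison; filled points are called (adjusted p under 0.05), open points are not, and bars are list medians. In HF-KO against HF-C the class II genes have a median of -0.99 and the recruited macrophage markers -0.87, while MHC class I presentation has 0.03. The list of other class II genes is not drawn.

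The second comparison asked what the NASH-inducing diet changed in control livers. With all libraries, 3 of the 8 class II genes were higher in HF-C than in LF-C livers and none lower, where 10.6% of 13825 genes tested were called higher. These 3 were Ciita, Ctss and H2-DMb1, and no library of 1 group overlapped the other for them, where 12.9% of genes tested lay higher without overlap. The other 5 did not pass, and LF-C-2 held the highest LF-C value of each.

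Ciita had 11.2, 9.78, 12.8, 5.47 and 13.3 CPM in HF-C replicates 1 to 5, against 1.02, 1.66, 3.47 and 1.93 CPM in LF-C replicates 1 to 4. Every HF-C liver was above every LF-C liver, LF-C-2 included, and the log2 fold change was 2.35 ± 0.37 (SE, adjusted p = 0.00219). Ctss averaged 149.7 ± 36.9 CPM in HF-C and 46.3 ± 14.0 CPM in LF-C livers (SD, n = 5 and 4), a log2 fold change of 1.69 ± 0.25 (SE, adjusted p = 0.00148). H2-DMb1 averaged 24.3 ± 6.36 CPM in HF-C and 7.62 ± 4.73 CPM in LF-C livers, a log2 fold change of 1.68 ± 0.36 (SE, adjusted p = 0.00957). All 3 calls held without each of the 9 libraries.

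For the chains and the invariant chain, LF-C-2 lay within or above the HF-C range in CPM. In FPKM, which carry no TMM factor, Cd74 (439) and H2-Eb1 (165) in LF-C-2 lay within that range. H2-Aa (130) and H2-Ab1 (106) in LF-C-2 lay below the lowest HF-C values, 149.6 and 149.0 FPKM. Cd74 had 438, 469.7, 779, 387 and 537 CPM in HF-C replicates 1 to 5, against 147, 1013, 138 and 97.0 CPM in LF-C replicates 1 to 4. H2-Eb1 had 319.6 CPM in LF-C-2 against 34.8 to 43.3 CPM in the other 3 LF-C livers, and H2-Aa had 241 CPM there against 37.1 to 43.7 CPM. With LF-C-2 in the fit, the log2 fold changes were 1.42 for H2-Ab1 (adjusted p = 0.0745), 1.28 for H2-Aa (0.144), 0.99 for H2-Eb1 (0.308), 0.58 for Cd74 (0.556) and 0.57 for H2-DMa (0.563).

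Without LF-C-2, all 8 genes were higher in HF-C than in LF-C livers, where 14.5% of 14097 genes tested were called higher, and all 8 lay without overlap, where 17.5% of genes did. H2-Aa and H2-Eb1 then differed by 2.43 ± 0.25 and 2.43 ± 0.26 on the log2 scale (SE), H2-Ab1 by 2.31 ± 0.26, Ciita by 2.22 ± 0.37, H2-DMb1 by 2.18 ± 0.22, Cd74 by 2.00 ± 0.25, H2-DMa by 1.96 ± 0.30 and Ctss by 1.88 ± 0.21, with adjusted p-values up to 0.00114. In LF-C-2 the leukocyte and macrophage markers summed to 751 CPM, against 193 to 303 CPM in the other LF-C livers, although Ptprc was at 2.77 CPM against 8.66 to 16.2 CPM. The cholangiocyte keratin Krt19 was at 73.2 CPM in LF-C-2, against 0.885 to 1.46 CPM in the other LF-C livers. Ciita, at 1.66 CPM, was the only one of the 8 genes that was not highest in it among LF-C livers. The hepatocyte markers of LF-C-2 summed to 200677 CPM, against 74155 to 115370 CPM in the other LF-C livers. All CPM of LF-C-2 are raised by its low TMM factor, 0.611 against 0.858 to 0.977 in the other LF-C livers. What set this library apart was not tested.

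Scaling mattered for the counts but not for the direction of the 8 genes. By library size alone the median over all genes was 0.43 and 2730 genes were called higher and 326 lower, against 1470 and 988 with TMM; 6 of the 8 were then called, and all 8 lay above that median, by 0.84 to 2.32 on the log2 scale.

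The other lists were read in the same comparison. Of 2 other class II genes tested none was called, with a median of 0.27 with all libraries and 0.48 without LF-C-2. All 8 markers of recruited macrophages rose (median 3.03), among them Ccr2, the chemokine receptor of inflammatory monocytes (3.61, adjusted p = 6.98e-05), and Itgax (3.06, adjusted p = 0.000302), and their summed level was 163 to 211 CPM in HF-C and 20.2 to 40.3 CPM in LF-C livers. Of 9 leukocyte and macrophage markers 3 rose with all libraries and 9 without LF-C-2. Ptprc rose by 2.06 on the log2 scale (adjusted p = 0.00749). Of 8 dendritic cell markers 2 rose, Flt3, a cytokine receptor of their precursors (1.67, adjusted p = 0.0109), and Clec9a (1.10, adjusted p = 0.0435, lost without LF-C-1 or without any 1 HF-C library, at adjusted p up to 0.0910), and 4 rose without LF-C-2. No marker of B cells or of CD4+ T cells was called, with or without LF-C-2.

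Lists of other liver cells moved in the same comparison. Of 7 hepatocyte markers 5 fell and none rose (median -1.38; 6 fell without LF-C-2), among them Alb, albumin (-1.26, adjusted p = 0.00955). Of 6 cholangiocyte markers 4 rose and none fell (6 rose without LF-C-2), among them Spp1, osteopontin, which activated macrophages also make (3.19, adjusted p = 0.000492). Of 7 Kupffer cell markers 1 rose and 2 fell, and 2 rose and 2 fell without LF-C-2. Cd163 fell by 3.52 on the log2 scale (adjusted p = 0.00141). Timd4, a phosphatidylserine receptor of resident macrophages, fell by 2.17 (adjusted p = 0.0445, lost without HF-C-1, HF-C-2, HF-C-3, HF-C-5, LF-C-1 or LF-C-3 at adjusted p up to 0.0976), and Cd5l rose by 1.16 (adjusted p = 0.0172, lost without LF-C-1 at 0.0566). Of 8 markers of sinusoidal endothelium 1 fell, Clec4g (-1.33, adjusted p = 0.0159), and 3 fell without LF-C-2. The part of these cell types in the class II difference was not tested.

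Of the regulators of CIITA, both chains of the interferon γ receptor rose, Ifngr2 by 0.78 (adjusted p = 0.00366) and Ifngr1 by 0.71 (adjusted p = 0.00998), and both calls held without each library. Of the 14 regulators tested these 2 rose and none fell, and 4 rose without LF-C-2. Of 5 costimulatory and coinhibitory ligands 3 rose. Icosl, the ligand of ICOS, rose by 1.99 (adjusted p = 0.00161), and Cd274, the inhibitory ligand PD-L1, rose by 1.76 (adjusted p = 0.00786). Cd40 was the third (1.58, adjusted p = 0.0463) and held only without LF-C-2. Without LF-C-2 4 of the 5 rose. Of 11 genes of endosomal processing 2 rose and 2 fell, where 7.15% of genes tested were called lower, and without LF-C-2 4 rose and 2 fell. Those that rose were Lgmn (1.03, adjusted p = 0.00561) and Marchf1, a ubiquitin ligase that removes class II from the cell surface (1.504, adjusted p = 0.00830). Those that fell were the cathepsins Ctsf (-0.92, adjusted p = 0.0374) and Ctsh (-0.88, adjusted p = 0.0468), and both calls were lost without LF-C-1 or without any 1 HF-C library, at adjusted p up to 0.0976 and 0.116. No gene of MHC class I presentation was called among 13 with all libraries, and 2 rose without LF-C-2.

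**Figure D4:**
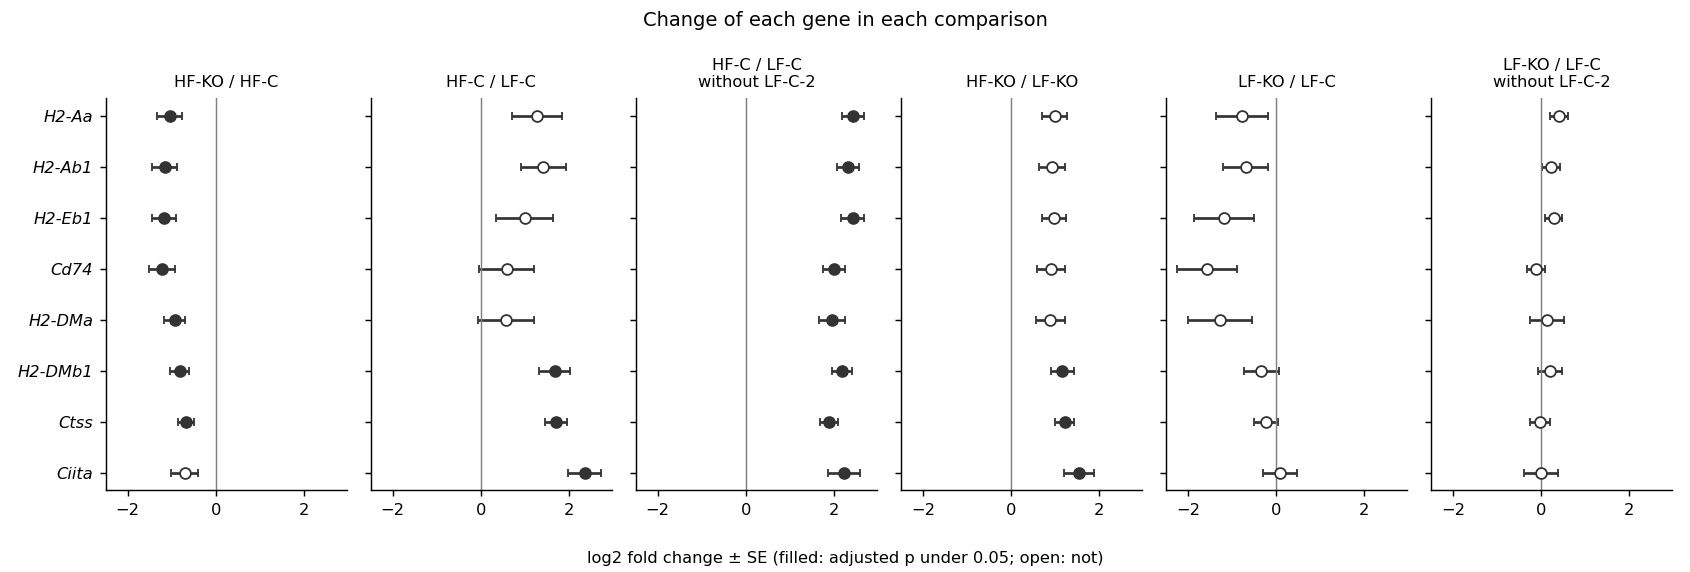
Log2 fold change with SE of each of the 8 genes in each comparison, filled where called (adjusted p under 0.05). In HF-KO against HF-C all 8 lie below 0, from -1.22 for Cd74 to -0.68 for Ctss; in HF-C against LF-C they lie between 0.57 and 2.35 with LF-C-2 and between 1.88 and 2.43 without it.

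The third comparison asked for the diet difference in livers labelled as knockouts. Ciita, Ctss and H2-DMb1 were higher in HF-KO than in LF-KO livers, 3 of the 8, where 3.62% of 13624 genes tested were called higher. Ctss had 68.1 at the lowest, a median of 91.8 and 126 CPM at the highest in HF-KO livers, against 40.1, 53.1, 27.3 and 36.3 CPM in LF-KO replicates 1 to 4. The groups did not overlap, and the log2 fold change was 1.22 ± 0.22 (SE, adjusted p = 0.0160). Ciita averaged 6.27 ± 2.86 CPM in HF-KO and 2.16 ± 0.210 CPM in LF-KO livers (SD, n = 6 and 4), a log2 fold change of 1.54 ± 0.34 (SE, adjusted p = 0.0297). H2-DMb1 averaged 13.4 ± 3.98 CPM in HF-KO and 5.99 ± 1.86 CPM in LF-KO livers, a log2 fold change of 1.16 ± 0.26 (SE, adjusted p = 0.0292).

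The chains lay higher in HF-KO livers without passing the test. H2-Aa had 64.2 at the lowest, a median of 92.2 and 178 CPM at the highest in HF-KO livers, against 37.4, 59.5, 57.7 and 53.2 CPM in LF-KO replicates 1 to 4 (log2 fold change 0.99, adjusted p = 0.0728). No HF-KO library was below an LF-KO library for H2-Aa, and the same held for H2-Eb1, Ciita, Ctss and H2-DMb1, where 4.77% of genes tested lay higher without overlap. The log2 fold changes were 0.97 for H2-Eb1 (adjusted p = 0.0668), 0.93 for H2-Ab1 (0.0924), 0.91 for Cd74 (0.124) and 0.89 for H2-DMa (0.152). HF-KO-2 had the lowest Cd74 of the HF-KO livers, 91.4 CPM, below all 4 LF-KO libraries, which had 103 to 138 CPM. Without HF-KO-2, 7 of the 8 were called and H2-DMa was not. Of all genes tested, 8.95% were then called in either direction, against 4.68% with all libraries.

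Other libraries ended the calls. Without LF-KO-3 or without LF-KO-4, 0 of the 8 were called, and over all genes 0 and 4 were called. The count was 1 without HF-KO-1, HF-KO-6 or LF-KO-1, 2 without HF-KO-4 and 3 without HF-KO-3, HF-KO-5 or LF-KO-2. Of all genes tested, 1.42 to 2.35% were called in the fits with a count of 1. It was 2.85% in that with a count of 2 and 2.93 to 5.97% in those with a count of 3. By library size alone the median over all genes was 0.19 and 903 genes were called higher and 49 lower, against 493 and 144 with TMM, and 6 of the 8 were called.

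Of the other lists, 7 of 8 recruited macrophage markers rose in HF-KO against LF-KO livers (median 1.87), with summed levels of 62.4 to 140 CPM in HF-KO and 19.5 to 58.2 CPM in LF-KO livers, and 6 of 9 leukocyte and macrophage markers rose. Examples are Ccr2 (1.94, adjusted p = 0.0160), Itgam (1.80, adjusted p = 0.0160) and Ptprc (1.08, adjusted p = 0.0160). In endosomal processing 3 of 11 genes rose, Lgmn (0.86, adjusted p = 0.0194), Marchf1 (1.36, adjusted p = 0.0323) and Ifi30 (0.58, adjusted p = 0.0436). Of 5 costimulatory and coinhibitory ligands, Cd274 (1.23, adjusted p = 0.0410) and Cd40 (1.59, adjusted p = 0.0439) rose. No other class II gene, regulator of CIITA, class I presentation gene, dendritic cell marker, B cell marker or CD4+ T cell marker was called. Of 7 hepatocyte markers 2 fell, Alb (-0.68, adjusted p = 0.0244) and Serpina1a, an antitrypsin (-0.65, adjusted p = 0.0335), and none rose. Of 6 cholangiocyte markers 2 rose, Spp1 (1.22, adjusted p = 0.0246) and Cftr, a chloride channel (2.07, adjusted p = 0.0268). In the Kupffer cell list 1 of 7 rose, Cd5l (1.52, adjusted p = 0.0150), and in that of sinusoidal endothelium 1 of 8, Pecam1, the adhesion molecule CD31 (0.66, adjusted p = 0.0270). The part of these cell types in the class II difference was not tested. Each of the calls named here was lost without LF-KO-3 and without LF-KO-4, at adjusted p-values up to 0.148. The calls of Lgmn, Ptprc, Itgam, Ccr2 and Cd5l held without each of the other 8 libraries.

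The fourth comparison asked for the knockout difference under the low fat diet. With all libraries no gene of 13056 tested was called (0%) by edgeR, 554 had an unadjusted p under 0.05, DESeq2 called 6 and limma-voom 0. Of the 8 class II genes, Cd74 had the largest difference, with 109, 117, 103 and 138 CPM in LF-KO replicates 1 to 4, against 147, 1013, 138 and 97.0 CPM in LF-C replicates 1 to 4 (log2 fold change -1.56, adjusted p = 0.704). The LF-KO values lay within the range of the LF-C livers other than LF-C-2. Without LF-C-2, 1 gene of 13229 was called (0.00756%), none of the 8. Their log2 fold changes were then 0.40 for H2-Aa, 0.28 for H2-Eb1, 0.23 for H2-Ab1, 0.20 for H2-DMb1, 0.13 for H2-DMa, -0.0082 for Ciita, -0.017 for Ctss and -0.12 for Cd74. No gene of the other lists was called in this comparison, with or without LF-C-2. H2-Aa averaged 51.9 ± 10.05 CPM in LF-KO livers (SD, n = 4) and 39.3 ± 3.76 CPM in the 3 LF-C livers other than LF-C-2.

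Whether the knockout difference itself differed between diets was tested on all 19 libraries as the HF-KO to HF-C difference less the LF-KO to LF-C difference. None of the 8 genes was called, where 0.202% of 14391 genes were, and their values ran from -0.81 for Ciita to 0.33 for Cd74. Without LF-C-2 all 8 values were negative, from -0.65 for Ctss to -1.44 for H2-Eb1, and none passed either, where 0.282% of 14544 genes did. The smallest adjusted p-values were then 0.122 for H2-Eb1, 0.127 for H2-Aa and 0.164 for H2-Ab1. An unadjusted p under 0.05 was then found for 7 of the 8, and for 1522 of the 14544 genes. With all 19 libraries it was found for 0 of the 8, and for 1856 of the 14391 genes. The lower class II level of HF-KO livers is thus not shown to be confined to the HFCF diet.

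Levels of the class II genes relative to each other were read as the FPKM of a gene over that of H2-Ab1 in the same library. The ratio of H2-Aa to H2-Ab1, the 2 chains of I-A, was 1.09 ± 0.121 in HF-KO and 1.00 ± 0.027 in HF-C livers (SD, n = 6 and 5), so the partners were level. H2-Eb1 stood at 0.963 ± 0.108 in HF-KO and 0.959 ± 0.048 in HF-C livers, and Cd74 at 1.85 ± 0.387 in HF-KO and 1.96 ± 0.098 in HF-C livers. Ctss stood at 0.883 ± 0.281 in HF-KO and 0.590 ± 0.052 in HF-C livers, with no overlap, a difference of 0.53 on the log2 scale with an exact two-sided permutation p of 0.00433, the smallest that 462 splits allow. After Benjamini-Hochberg adjustment over the 28 ratios tested, the adjusted p was 0.121, the lowest of the family, and no ratio passed. With so few splits, 1 ratio alone could not pass even without overlap. That none passed therefore does not show that the ratios were alike. H2-DMb1 over H2-Ab1 was 0.121 in HF-KO and 0.0921 in HF-C livers on average, and H2-DMa 0.0776 in HF-KO and 0.0637 in HF-C livers, both with an exact permutation p of 0.0303 and an adjusted p of 0.170.

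Single libraries stood out in these ratios. In HF-KO-2 the Cd74 ratio was 1.15, against 1.66 to 2.18 in the other HF-KO livers, and its Ctss ratio was 1.298. In LF-C-2 the Cd74 ratio was 4.15 and the H2-Eb1 ratio 1.56, while the Ctss ratio was 0.280 and that of Ciita 0.00182. These 2 libraries also had the strongest negative rank correlation, over genes within a library, between a gene's deviation and its length. Deviations were taken from the mean of the other libraries of the same group, and the correlation was -0.443 in HF-KO-2 and -0.499 in LF-C-2. The other 17 libraries ran from -0.321 to 0.488, and the part of gene length in the ratios was not tested.

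**Figure D5:**
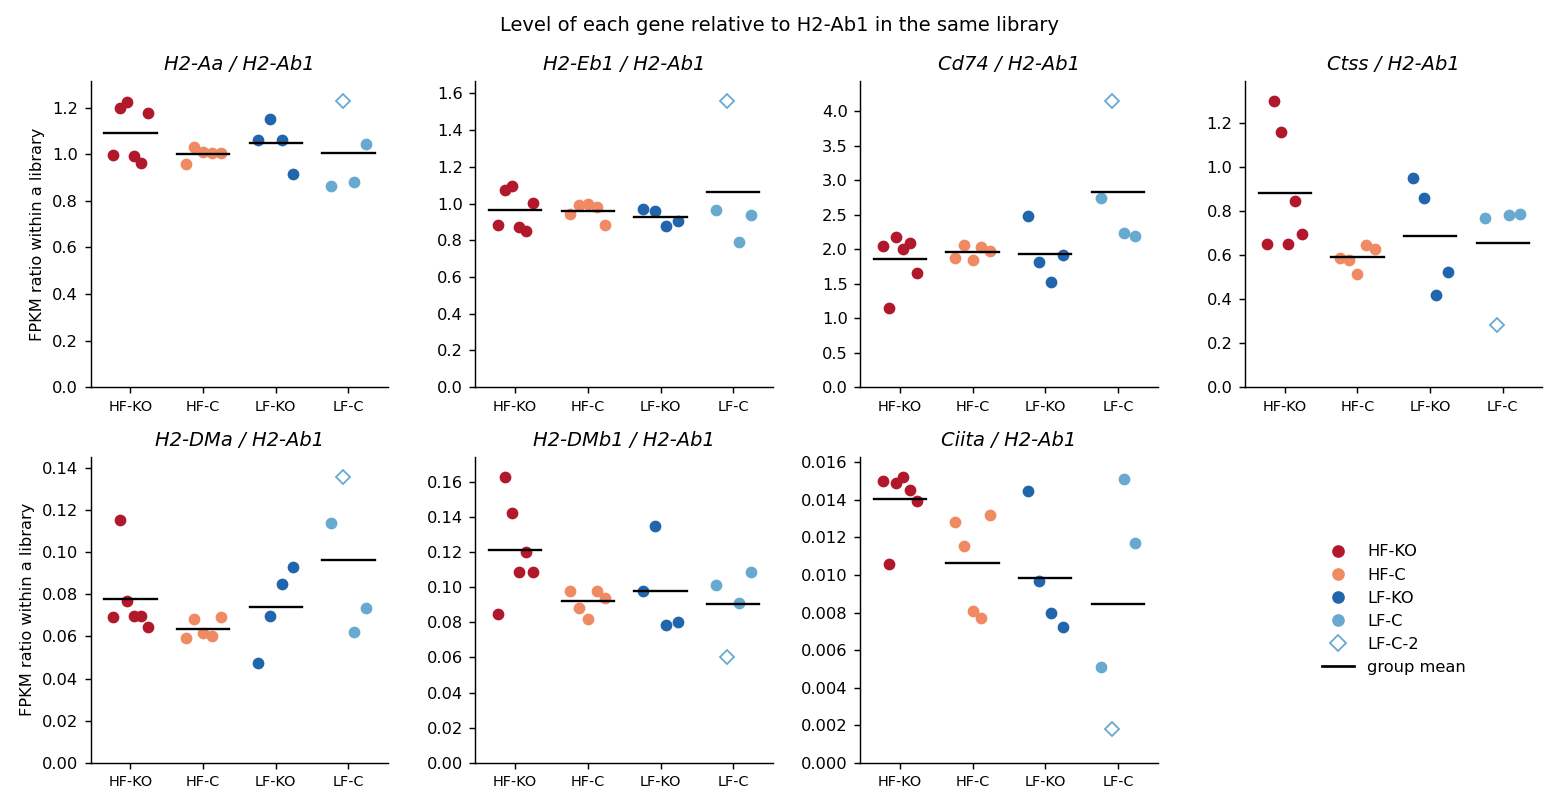
FPKM of each gene divided by that of H2-Ab1 in the same library (linear axis from 0), by group from HF-KO and HF-C to LF-KO and LF-C; points are libraries, the open diamond is LF-C-2 and bars are group means. H2-Aa and H2-Eb1 stay near 1 in HF-KO and HF-C livers, Ctss lies higher in HF-KO (mean 0.883) than in HF-C (mean 0.590), and LF-C-2 stands apart for Cd74 at 4.15.

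Across the 19 libraries, the genes whose level followed the standardized mean of H2-Aa, H2-Ab1, H2-Eb1 and Cd74 most closely were found among 10571 genes by Pearson's r of log2(CPM + 1), as a description without a test. The points share the 4 groups and LF-C-2, which contribute to the likeness. Ifi30 came first (r = 0.957), followed by Rac2 (0.952), Hcls1, a cortactin-related protein of blood cells (0.939), Pld4 (0.938) and Fcer1g, the common γ chain of Fc receptors (0.937). Vim, vimentin (0.934), Il10ra, the interleukin 10 receptor (0.932), Il18bp (0.931), Spi1, the myeloid factor PU.1 (0.931), and Rasa4 (0.924) completed the first 10. Of the 8 genes themselves, Ciita (0.724) and Ctss (0.837) followed that mean least, and the 4 that make up the mean follow it by construction.

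Without LF-C-2, r was 0.929 for Ciita and 0.921 for Ctss, and the first 10 genes were Evl, Il10ra, Ppp1r18, Sp110, Adam8, Ifi30, Rac2, Apobec3, Itgax and Vim, with r of 0.940 to 0.956. Ifi30, Rac2, Il10ra and Vim were thus among the first 10 with and without that library.

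The authors' deposited table for HF-KO against HF-C lists an adjusted p under 0.05 for 7 of the 8 genes, with log2 fold changes down to -1.01 for Cd74, and 0.106 for Ciita (log2 fold change -0.57). Their table for HF-KO against LF-KO does so for 7, all but H2-DMa (adjusted p = 0.0842 in the authors' deposited table). For HF-C against LF-C the authors' deposited table does so for 4 and gives no p for Cd74, H2-Aa or H2-Eb1. For LF-KO against LF-C it does so for none and gives no p for Cd74, H2-Aa, H2-DMa, H2-Eb1 or H2-Ab1.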

How the data were processed

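Whole liver RNA was sequenced as read pairs of 150 nt from libraries without strand information, per the labels' protocols, which also name STAR 2.5. The submitters' processing notes name HTSeq 0.6.1 and DESeq2, and the genome build is not given in the sources used here. The authors deposited 4 tables with read counts per gene and library, as whole numbers. The deposited FPKM values are relative to the listed gene length and to the library total, which a recomputation from the counts gave back to 4.98e-12. The deposited log2 fold changes and the deposited p-values come from the authors' own comparisons and are printed only where named as theirs. The deposited signal columns, group means by the authors, were not used. The tables were joined by gene identifier, and all 38 library columns that tables share were identical.

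Pairwise comparisons used only the libraries of both groups, in edgeR 4.0.16 in R 4.3.3 (TMM factors, filterByExpr, quasi-likelihood test, Benjamini-Hochberg adjustment over all genes tested). SEs were taken as the log2 fold change, without its sign, over the square root of F. The difference between diets was fitted on all 19 libraries. Scripts were tested on simulated data. Alternatives were median-of-ratios factors, library size alone, no filter, DESeq2 1.42.0, limma-voom (limma 3.58.1), all libraries in 1 fit, a replicate block and leaving out each library; the fit of all libraries but LF-C-2 was added after seeing the data. Ratios were compared by exact permutation (scipy 1.17.1).

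The 8 genes and the lists, 120 further genes in 14 lists, all found, were chosen with earlier results of these data known. Named list genes are the up to 4 of a list with the smallest p in a comparison. The labels name 1 animal per library, and p-values measure the spread between these libraries. Replicate libraries differed by more than sampling noise (chi-square per gene of 7.66 or more). Counts are fragments, not molecules, and counting error is a minimum of the true error.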

Additional observations from a re-analysis of the deposited data

Results flagged for a closer look

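Of 32 gene and group combinations examined for a single library far from the rest of its group (4 to 6 libraries), 7 stood out. A chance rate of about 1 in 20 would hold for normally distributed, independent values, which CPM of genes in shared libraries need not be. In 6 of them it was LF-C-2, far above the other LF-C livers: Cd74 at 1013 CPM, H2-Eb1 at 319.6 CPM, H2-Aa at 241 CPM, H2-Ab1 at 209.8 CPM, H2-DMa at 36.6 CPM and H2-DMb1 at 14.7 CPM. The genes share that library, so these are not 6 separate observations. The other was H2-Eb1 in HF-C-3, at 356 CPM against 158 to 201 CPM in the other HF-C livers.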

How the results depend on the processing

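In HF-KO against HF-C, 7 of the 8 genes were called, 0 with all 19 libraries in 1 fit, 5 with the replicate block, and 1 to 7 when a library was left out. The direction of all 8 held in every alternative. Over all genes 1360 were called, 2347 by DESeq2, 531 with all 19 libraries in 1 fit, 786 with the replicate block and 704 to 1813 with a library left out. In HF-C against LF-C, 3 of the 8 were called, 4 by DESeq2, 4 with all 19 libraries, 5 by limma-voom and 6 by library size alone. It was 8 with all libraries but LF-C-2 in 1 fit and 3 to 8 with a library left out. Over all genes 2458 were called there, 3870 by DESeq2, 3795 with all 19 libraries, 700 with the block and 1451 to 3478 with a library left out. In HF-KO against LF-KO, 3 of the 8 were called, 6 by library size alone, 7 by DESeq2, 2 by limma-voom and 1 with the block. It was 6 with all libraries but LF-C-2 and 0 to 7 with a library left out. Over all genes 637 were called there, 1386 by DESeq2, 178 with the block, 1012 with all libraries but LF-C-2 and 0 to 1214 with a library left out. In LF-KO against LF-C, 0 genes were called, 6 by DESeq2, 1 with all 19 libraries, 1 with all libraries but LF-C-2 and 0 to 1 with a library left out. For the difference of the knockout effect between diets 29 were called, 15 by library size alone, 213 by DESeq2, 16 by limma-voom, 18 with the block and 7 to 48 with a library left out. The cause of these moves was not tested.

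In LF-KO against LF-C the sign turned with all libraries but LF-C-2 in 1 fit for H2-Aa (0.39), H2-Ab1 (0.21), H2-Eb1 (0.26), H2-DMa (0.11), H2-DMb1 (0.18) and Ciita (-0.024). Leaving out a library gave -1.03 to 0.40 for H2-Aa, -0.93 to 0.23 for H2-Ab1, -1.46 to 0.28 for H2-Eb1, -1.57 to 0.13 for H2-DMa, -0.56 to 0.20 for H2-DMb1 and -0.12 to 0.49 for Ciita. For the difference between diets the sign turned for H2-Eb1 with median-of-ratios factors (0.042), for H2-DMa by library size alone (-0.18), limma-voom (-0.27) and the block (-0.16), and for Cd74 by library size alone (-0.18), limma-voom (-0.48) and the block (-0.10). Leaving out a library gave -1.44 to 0.25 for H2-Eb1, -1.05 to 0.61 for H2-DMa and -1.09 to 0.61 for Cd74. No source ties the replicate numbers to animals or days, and in no comparison did every same-numbered pair correlate above 0.1, so the numbers were not taken as pairing. The correlations were -0.152 to 0.164 in HF-KO against HF-C (4 of 5 pairs above 0.1), 0.087 to 0.293 in HF-KO against LF-KO (3 of 4), -0.253 to 0.086 in HF-C against LF-C (0 of 4) and -0.233 to 0.234 in LF-KO against LF-C (1 of 4). Libraries that correlated best with their own number were 2 of 5, 2 of 4, 1 of 4 and 1 of 4. DESeq2 gave no adjusted p for 4 of the 8 genes in HF-C against LF-C and for 5 in LF-KO against LF-C.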
